A study of Mus musculus with 8 samples.

Results

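The protein genes of the cytosolic ribosome were followed in mouse liver with and without Keap1. Members were all genes with a probe on the array whose current mouse symbol starts with Rpl or Rps and a digit, without the Rps6k kinases and without pseudogenes. This rule, which used names and no measured value, found 82 genes of 19751 named genes on the array, measured by 163 probes. A signal well above background on 2 or more of the 8 arrays was found for 80 genes and 159 probes, and 47 of the 80 genes carry large subunit (Rpl) names and 33 small subunit (Rps) names. The other 2 genes, Rpl3l and Rpl10l, had no probe well above background on any array. The rule also takes in Rps19bp1, which encodes a protein that binds Rps19 and is not a ribosomal protein, and Rps23rg1, a retrogene copy derived from Rps23.

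Whole livers of 8 mice were hybridised singly to 1-colour Agilent mouse arrays, 2 mice in each of 4 groups. In AKP mice the liver expresses mutant p53 (R172H) beside an activated oncogene. AKP::Keap1 mice carry the same alleles together with deletion of Keap1, and each genotype has males and females. Both genotypes therefore share the oncogene and the mutant p53, and no liver without them was compared. The promoter or Cre line that drives the alleles and the age of the mice are not given in the sources used here.

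Each ribosome joins a small subunit, which reads the messenger RNA, to a large subunit, which forms peptide bonds, and each subunit holds ribosomal RNA and many different proteins made from separate genes. Many of these messenger RNAs begin with a run of C and T, the terminal oligopyrimidine tract, through which mTOR signalling controls their translation. Free Rpl5, Rpl11 and Rpl23 can bind Mdm2, the ligase that degrades p53, which links ribosome assembly to the p53 response. Nrf2, the transcription factor that Keap1 holds in check, is best known for genes of antioxidant defence and detoxification.

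The start of the transcript is the feature that sets these genes apart in textbooks, so 30-base windows of 8 members are shown, each with the 15 bases before and the 15 bases from the annotated first transcribed base. The first 6 members carry an oligopyrimidine run at that base, written in capitals. Rps19 and Rpl7l1, whose levels differed between genotypes below, have no such run at the annotated start, and Rps21, which also differed, has a short one. The sequences are those of RefSeq on GRCm38.p6, read on the transcribed strand.
Rps6: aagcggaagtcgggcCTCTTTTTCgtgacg
Rps18: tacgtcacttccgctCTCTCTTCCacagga
Rpl28: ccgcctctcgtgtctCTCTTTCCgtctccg
Rpl35: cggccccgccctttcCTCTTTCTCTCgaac
Rpl15: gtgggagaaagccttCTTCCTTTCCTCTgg
Rps21: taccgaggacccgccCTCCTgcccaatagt
Rps19: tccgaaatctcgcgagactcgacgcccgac
Rpl7l1: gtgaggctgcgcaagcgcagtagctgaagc
The windows lie at chr4:86857353-86857382 (Rps6, minus strand), chr17:33955651-33955680 (Rps18, minus), chr7:4792950-4792979 (Rpl28, plus) and chr2:39005117-39005146 (Rpl35, minus). Those of the others are chr14:18270972-18271001 (Rpl15, minus), chr2:180257364-180257393 (Rps21, plus), chr7:24884577-24884606 (Rps19, plus) and chr17:46782642-46782671 (Rpl7l1, minus). Each spans the annotated start, so its last 15 bases belong to the first exon. Rps21 has 2 and Rps19 has 3 annotated starts in the table, of which 1 each is shown.

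Windows from 250 bases before to 50 bases after the start were at hand for 60 of the 80 members, 71 windows in all. A C followed by 4 more C or T directly at the start was found in 12 of 71 member windows, 16.9%, against 2.51% of 32851 windows of all genes. With a longer run, C and 7 more C or T, lying wholly between 15 bases before and 15 bases after the start, the shares were 38.0% and 9.26%. Such a run can lie entirely before the first transcribed base. The letters CCGGAAG, the core bound by ETS factors, stood on either strand of 35.2% of member windows and 8.86% of all windows. AAGATGGC, the core bound by YY1, stood in 11.3% and 2.75%. TGACNNNGC, the core of the antioxidant response element bound by Nrf2, stood in 15.5% of member windows and 12.4% of all windows, and CACGTG, the E-box bound by Myc, in 11.3% and 7.15%. TATAAA was found in 8.45% of member windows and 13.6% of all windows. Of the members that differed between genotypes, Rps21 and Rpl39l hold CCGGAAG, Rpl7l1 holds AAGATGGC and Rps19 holds CACGTG, while none of these 4 holds TGACNNNGC. The runs were searched on the transcribed strand and the other letters on both strands, each on its own, so matches can overlap. A match describes letters in a window and not a bound site.

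Levels below are log2 of the processed signal relative to each array's 75th percentile, so a value of 0 is a signal at that percentile, and a gene with several probes is represented by its brightest. A gene was called where limma's Benjamini-Hochberg adjusted p over all genes was below 0.05, two-sided. The arrays had no saturated spot, 65.7% to 70.7% of spots were well above background, and their 75th percentiles ranged from 1041 to 1656 in processed signal. Each of the 4 slides carried 1 group and the scan days split by sex. Where single groups are compared, the slide and the group cannot be told apart. The titles number the mice but say nothing of litter or batch. In whole liver, fewer cells of a type and less RNA per cell cannot be told apart.

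The labels were checked first on the targeted gene. Keap1 stood at 1.74 and 2.05 in AKP males against -1.46 and -1.51 in AKP::Keap1 males, and at 1.55 and 1.63 in AKP females against -0.64 and -0.85 in AKP::Keap1 females. It fell in AKP::Keap1 mice (limma adjusted p = 0.00018), and Nqo1, the classical Nrf2 target, rose by 4.17 ± 0.22 (SE, adjusted p = 0.00026). All 10 hepatocyte markers tested were expressed, and 6 of them fell by genotype (median -0.56). That count depended on the scaling: 10 fell with the array median, 4 with quantile normalization, 3 with loess and 2 without scaling, where the median was -0.24. In the same comparison 9 of 10 bile duct markers rose (median 3.11), as did 10 of 10 proliferation markers (median 1.53) and 6 of 9 immune markers (median 0.73). No erythroid marker of 4 was called (median -0.14, limma), and their summed level ranged from 5.71 to 6.94 across the mice.

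With both sexes averaged, few ribosomal protein genes differed between the genotypes. The median difference over the 80 members, AKP::Keap1 minus AKP, was 0.02 on the log2 scale, with 49 members positive and 31 negative. On the scale of the levels defined above, every member's fitted difference was below 1.5-fold. That of Rpl39l is not a measured size, because its AKP male signals were not well above background. Over all genes tested the median was -0.003. limma called 4 members, 3 higher and 1 lower, beside 39.1% of all 15858 genes tested, 21.8% higher and 17.3% lower. At an unadjusted p below 0.05 there were 8 members. The direction of the median depended on the scaling: it was -0.22 after scaling to the array median, 0.18 after quantile normalization, 0.17 after cyclic loess, 0.34 without scaling and 0.04 after normexp background correction. Those scalings moved the median of all genes as well, to -0.25 with the array median, 0.31 without scaling and -0.12 with normexp, and the members called moved with them. With the array median 0 were called higher and 21 lower, beside 55.1% of all genes called in either direction. The split was 19 and 1 with quantile normalization (36.8% of all genes), 22 and 1 with loess (36.7%) and 47 and 0 without scaling (40.2%). The differences of single members moved too. Over the alternatives run, that of Rps19 ranged from 0.26 to 0.81 and that of Rps21 from 0.22 to 0.78. The upper ends of both ranges exceed 1.5-fold. With the slide as a random block limma called none of the 80 (5 at an unadjusted p below 0.05), beside 20.6% of all genes. Without AKP male 2 or AKP::Keap1 male 2 it called fewer members, and the share of all genes called fell as well.

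**Figure D1:**
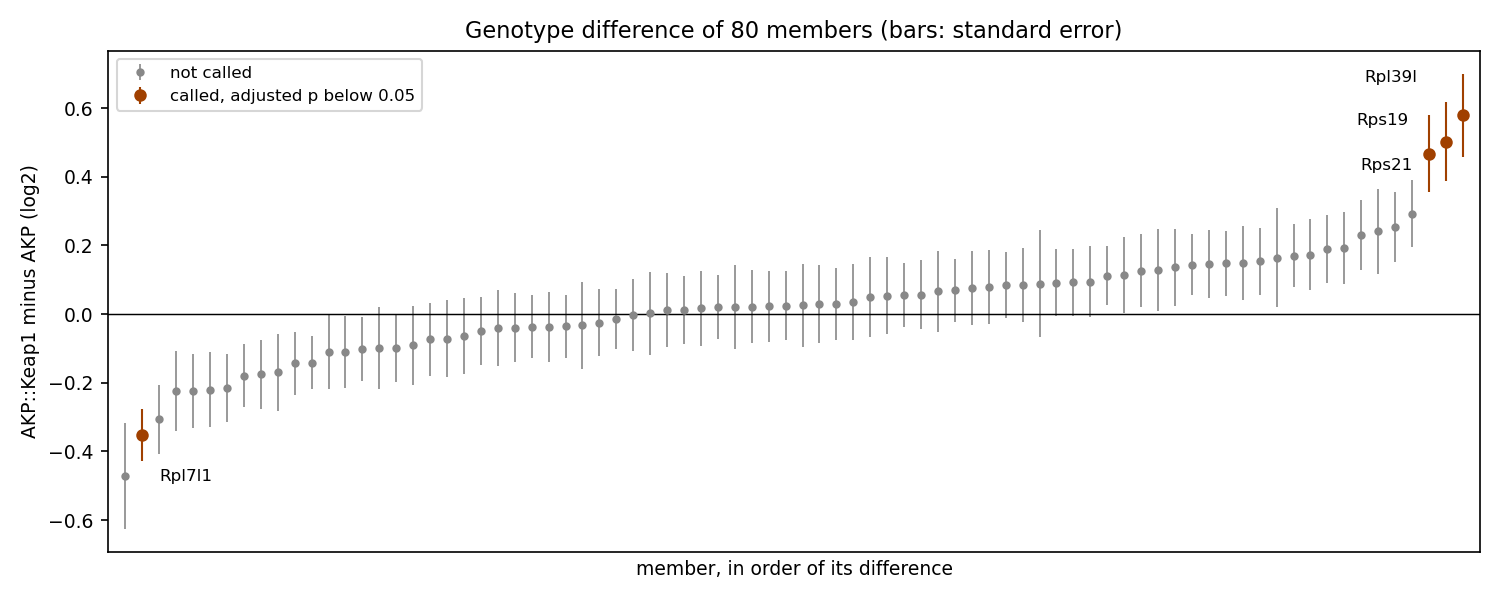
Genotype difference (AKP::Keap1 minus AKP, log2, mean over both sexes) of each of the 80 members, ordered by size. Points are fitted differences, bars are standard errors, and the 4 members called by limma are coloured: Rpl7l1 at -0.35 on the left, and Rps21 at 0.47, Rps19 at 0.50 and Rpl39l on the right. The point of Rpl39l includes AKP male signals that were not well above background, so its size is not a measured one.

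Rps19, a small subunit protein needed for processing of 18S precursor RNA and mutated in Diamond-Blackfan anaemia, rose. Its level was 2.69 and 2.42 in the AKP males, 2.58 and 2.68 in the AKP::Keap1 males, 1.19 and 1.47 in AKP females, and 2.35 and 2.17 in AKP::Keap1 females. AKP females stood apart below the other 6 mice, while the 2 male groups overlapped. The difference over both sexes was 0.50 ± 0.11 (SE, limma adjusted p = 0.0171), made up of 0.93 ± 0.16 in females (adjusted p = 0.0146) and 0.08 ± 0.16 in males (adjusted p = 0.738). Without AKP male 2 the adjusted p over both sexes was 0.0518 and without AKP::Keap1 male 2 it was 0.0608.

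Rps21, a small protein of the small subunit, also rose. It was measured at 5.32 and 5.05 in the AKP males, 5.39 and 5.54 in the AKP::Keap1 males, 4.86 and 4.68 in AKP females, and 5.54 and 5.30 in AKP::Keap1 females. Within each sex both AKP::Keap1 mice were above both AKP mice. The difference was 0.47 ± 0.11 (SE, limma adjusted p = 0.0201), with 0.65 ± 0.16 in females (adjusted p = 0.0346) and 0.28 ± 0.16 in males (adjusted p = 0.211). Leaving out AKP male 2, AKP::Keap1 male 2, AKP female 2 or AKP::Keap1 female 1 raised the adjusted p to 0.0592, 0.0699, 0.0624 and 0.0532.

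Rpl7l1, a relative of Rpl7 that works in assembly of the large subunit, fell. Values were 0.30 and 0.25 in the AKP males, -0.25 and -0.17 in the AKP::Keap1 males, 0.02 and 0.01 in AKP females, and -0.20 and -0.20 in AKP::Keap1 females. All 4 AKP::Keap1 mice were below all 4 AKP mice. No other member was separated in this way in either direction, beside 11.5% of all genes separated lower and 15.4% higher. The difference was -0.35 ± 0.08 (SE, limma adjusted p = 0.0139). Without AKP::Keap1 male 1 it was -0.33 and the call was lost. Without scaling it was -0.039 and not called, and the call was also lost with the slide as a random block.

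Rpl39l, a copy of Rpl39 known from testis, had a very dim probe and is a bound on one side. It stood at -7.49 and -7.16 in AKP males, where it was not well above background, at -6.26 and -6.16 in AKP::Keap1 males, at -5.94 and -5.79 in AKP females and at -5.98 and -5.66 in AKP::Keap1 females. AKP males were below the other 6 mice. With each AKP male value raised to the lowest signal well above background on its array, AKP::Keap1 males were at least 1.35-fold higher, a bound that was not tested. The call in males (limma adjusted p = 0.0093) was made on the values as measured, before they were raised. Rpl39l was also called higher over both sexes (adjusted p = 0.0128), but that value takes in the AKP males, so no size is given. After normexp background correction the sign turned, to -0.26.

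**Figure D2:**
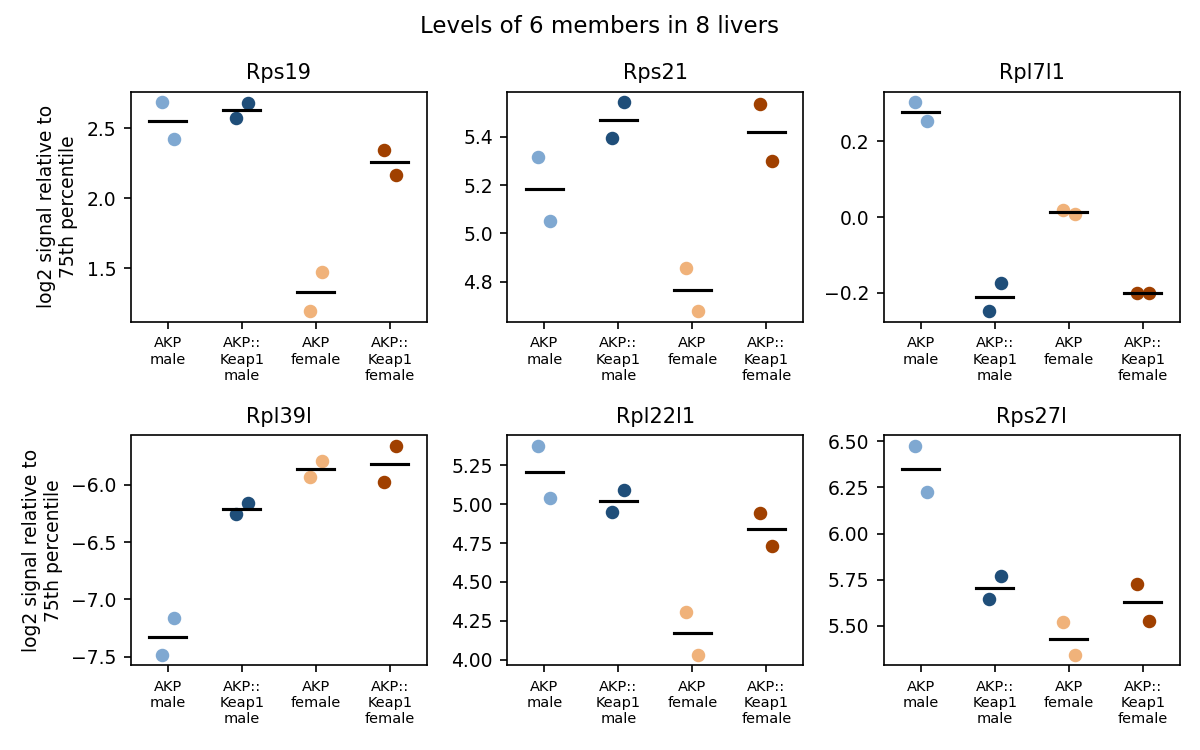
Levels of 6 members in each of the 8 livers (points, log2 signal relative to the array's 75th percentile) with the mean of each group of 2 (lines). AKP females were lowest for Rps19, Rps21 and Rpl22l1, AKP males were highest for Rps27l and lowest for Rpl39l, and both AKP::Keap1 groups lay below both AKP groups for Rpl7l1.

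Another 3 members lay near the threshold by genotype. Rps4l, a copy of Rps4, was at -0.47 ± 0.16 (SE, limma adjusted p = 0.0544), Rps19bp1 at -0.31 ± 0.10 (adjusted p = 0.0545) and Rpl12, of the large subunit stalk base, at 0.29 ± 0.10 (adjusted p = 0.0557). Among the Mdm2-binding proteins, Rpl5 differed by 0.15 ± 0.11, Rpl11 by -0.18 ± 0.09 and Rpl23 by -0.06 ± 0.11, and none was called. Rpl5 was measured at 5.58 and 5.26 in the AKP males, 5.45 and 5.59 in the AKP::Keap1 males, 5.10 and 5.11 in AKP females, and 5.39 and 5.21 in AKP::Keap1 females. Rpl11 ran from 7.13 to 7.65 and Rpl23 from 6.70 to 7.30 over the 8 mice, with the genotypes overlapping.

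Within females 75 of 80 members had a positive fitted difference, and 7 of them were called. The median difference was 0.26 against 0.06 over all genes, and the median stayed positive under all 6 scalings, from 0.13 to 0.37. limma called 7 members higher and none lower, beside 12.5% of 15864 genes higher and 8.88% lower (21.4% in either direction), and 25 members had an unadjusted p below 0.05. In 62 members both AKP::Keap1 females were above both AKP females, beside 37.2% of all genes, and in 2, Rpl7l1 and Rps4l, both were below, beside 28.0%. Counts of calls varied with the setting: the array median gave 2 higher (22.7% of all genes in either direction), quantile normalization and no scaling gave 13 each (21.8% and 15.1%), and the 4 female arrays fitted alone gave 0 (7.74%), with 17 at an unadjusted p below 0.05. Leaving out any 1 array gave fewer calls among the members, and the share of all genes called fell as well.

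The members that rose in females after Rps19 were Rpl22l1, Rps26, Rps21, Rpl12, Rpl13 and Rpl18. Rpl22l1, a paralog of Rpl22, was at 4.31 and 4.03 in AKP females and at 4.94 and 4.73 in AKP::Keap1 females, a difference of 0.67 ± 0.18 (SE, limma adjusted p = 0.0428). Rps26, which contacts messenger RNA near the exit of the small subunit and is also mutated in Diamond-Blackfan anaemia, went from 4.10 and 4.19 to 4.93 and 4.68 (0.66 ± 0.14, adjusted p = 0.0260). For the large subunit protein Rpl12 the values were 5.53 and 5.47 against 6.20 and 6.03, a difference of 0.61 ± 0.14. Rpl13 and Rpl18, both of the large subunit, differed by 0.61 ± 0.14 and 0.58 ± 0.15. In each of these genes the AKP females were the lowest of the 8 mice. Dimmer probes of Rpl13 differed in females by 0.48 (limma adjusted p = 0.0771) and 0.42 (adjusted p = 0.108), neither called.

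In males the members lay lower in AKP::Keap1 mice on the scale of the 75th percentile. There the median difference was -0.24 against -0.04 over all genes, and 71 of 80 members were negative. The sign of this median turned under 3 of the 6 scalings: it was -0.58 with the array median and -0.21 with normexp, but 0.15 with quantile normalization, 0.18 with loess and 0.29 without scaling. limma called 1 member higher and 5 lower, beside 16.6% of 15859 genes higher and 12.5% lower (29.1% in either direction). The split was 1 higher and 67 lower with the array median, beside 51.8% of all genes in either direction, 8 and 2 with loess (20.5%), and 14 and 0 without scaling (35.3%). In 45 members both AKP::Keap1 males were below both AKP males, beside 39.3% of all genes, and in 3 (Rpl39l, Rps21 and Rps23rg1) both were above, beside 34.2%. Leaving out any 1 of the male arrays gave fewer calls among the members, and the share of all genes called fell as well.

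The 5 members called lower in males were led by 3 that are relatives or partners of core proteins. Rps19bp1 was at 2.60 and 2.61 in AKP males against 1.94 and 1.83 in AKP::Keap1 males, a difference of -0.72 ± 0.14 (SE, limma adjusted p = 0.0180). Rps27l, a p53-inducible copy of Rps27, was at 6.47 and 6.23 against 5.64 and 5.77 (-0.64 ± 0.15, adjusted p = 0.0267). Both values of AKP males were above the other 6 mice for these 2 genes. Rpl7l1 differed by -0.49 ± 0.11. The core proteins Rps2, which lines the messenger RNA entry of the small subunit, and Rpl3, which sits at the peptidyl transferase centre, differed by -0.49 ± 0.13 and -0.40 ± 0.11. Without scaling, Rps2, Rpl3 and Rpl7l1 turned to 0.033, 0.12 and 0.032, none of them called, while Rps19bp1 and Rps27l stayed negative under every alternative run.

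**Figure D3:**
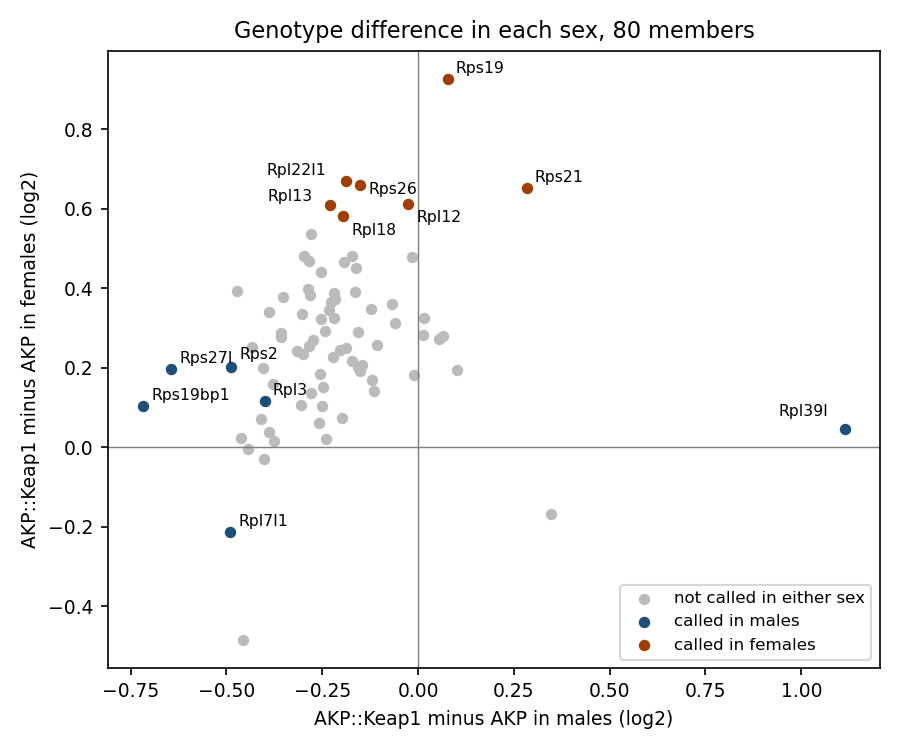
Genotype difference (AKP::Keap1 minus AKP, log2) of the 80 members in males (horizontal) and in females (vertical). Most points lie to the upper left, lower in AKP::Keap1 males and higher in AKP::Keap1 females on the scale of the 75th percentile. The male position moves to the right of 0 for most members with quantile normalization, loess or no scaling.

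The difference between the sexes was tested by the interaction, in which the difference found in males is subtracted from that in females. Each group had its own slide, so the interaction cannot be told apart from the slides. The median of the interaction was 0.51 over the members and 0.04 over all genes, and 77 of 80 members were positive. In 30 members both AKP::Keap1 males were below both AKP males while both AKP::Keap1 females were above both AKP females, beside 7.6% of all genes. limma called none of the 80, beside 1.9% of 15858 genes (0.511% higher and 1.39% lower), with 38 members at an unadjusted p below 0.05 and 1 called when the spread was fitted with trend and robust settings. Among the members well above background in every group, the smallest adjusted p was that of Rpl13 (0.84 ± 0.20, SE, limma adjusted p = 0.0860). This is its brightest probe, and its dimmer probes gave 0.30 (adjusted p = 0.462) and 0.56 (adjusted p = 0.190). The median stayed positive under the 6 scalings, but its size ran from 0.72 with the array median to 0.08 with quantile normalization and 0.01 with loess, and the array median gave 14 calls, all higher, beside 6.85% of all genes.

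The brightness of the probes is part of this picture. Of the 80 members, 73 belonged to the brightest 10% of genes on these arrays (1586 genes), with Rps14, Rpl37a and Rpl11 at the top and Rpl39l, Rpl21 and Rps23rg1 at the bottom. Probes differ in how well they hybridise, so this order is one of signals and not of transcript amounts. The brightest 10% as a whole had a median genotype difference of -0.16, with -0.37 in males and 0.03 in females, and an interaction of 0.41. limma called 104 of its genes higher and 338 lower by genotype. Set beside those genes, the members' median by genotype was higher by 0.18 to 0.22 under each of the 6 scalings, by 0.11 to 0.18 in males and by 0.22 to 0.23 in females. The 75th percentile, the array median and no scaling shift all genes of an array alike. They therefore give the same gap by construction (0.18 by genotype) and are not separate checks of it. The brightest 10% also include the 73 members. This gap is a description of medians without a test.

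**Figure D4:**
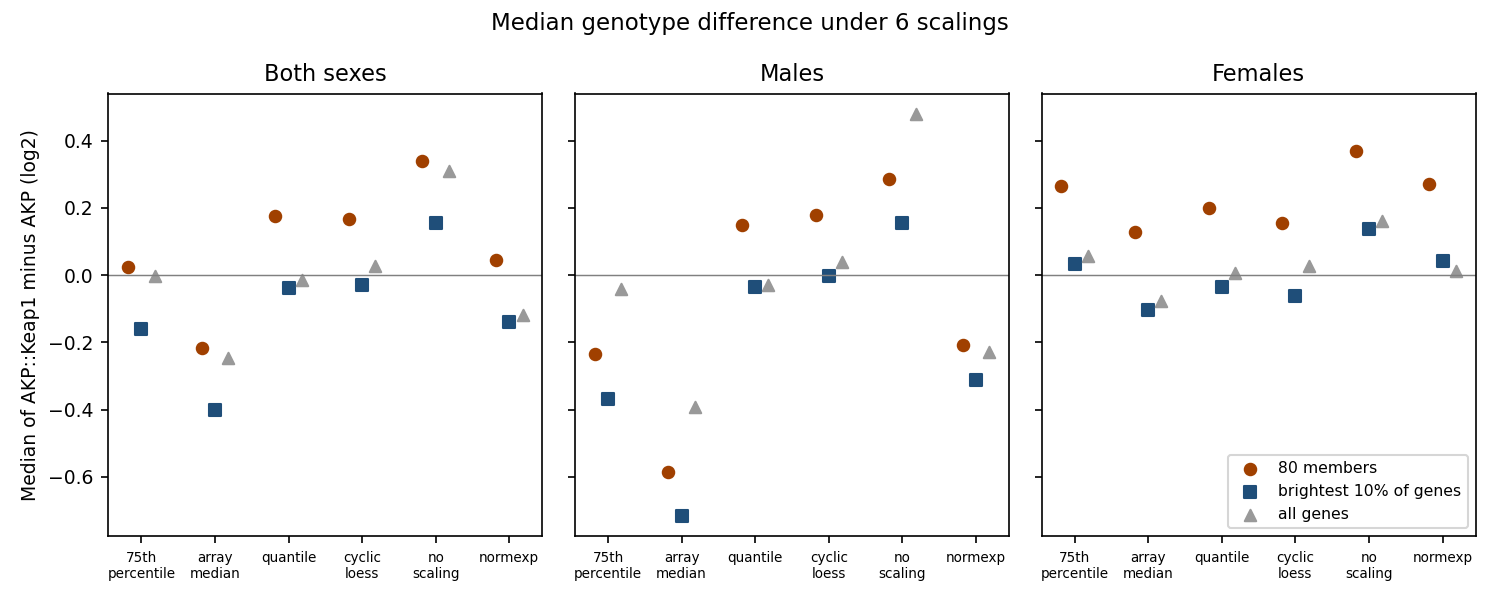
Median genotype difference (AKP::Keap1 minus AKP, log2) of the 80 members (circles), of the brightest 10% of genes (squares) and of all genes (triangles) under 6 ways of scaling, for both sexes together, males and females. The circles lie above the squares in every column, whereas their side of 0 changes with the scaling in the first 2 panels and stays positive in females.

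A measure that needs no scaling between arrays, the share of the summed gene signal that falls on the 80 members, was also taken. It was 5.90% and 5.52% in the AKP males, 5.95% and 6.26% in the AKP::Keap1 males, 5.30% and 5.27% in AKP females, and 6.26% and 6.23% in AKP::Keap1 females. The 4 AKP::Keap1 mice were all above the 4 AKP mice, narrowly in males, where 5.90% met 5.95%, and widely in females. Group means were 5.71% ± 0.27, 6.10% ± 0.22, 5.28% ± 0.02 and 6.24% ± 0.02 (SD, n = 2). The total in the denominator holds the bright liver genes as well, and the summed level of the 10 hepatocyte markers was 10.94 and 10.76 in the AKP males, 10.20 and 10.28 in the AKP::Keap1 males, 10.39 and 10.54 in AKP females, and 10.40 and 10.06 in AKP::Keap1 females. The summed level of the 10 bile duct markers ranged from 1.65 to 3.11 in AKP mice and from 5.20 to 6.33 in AKP::Keap1 mice. The part of these cell types in the members' share was not tested.

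On the scale of the 75th percentile, most members also shifted in the same direction between mice of the same group, except in AKP females. The median level of the 80 members was 6.22 and 6.02 in the AKP males, 5.80 and 5.99 in the AKP::Keap1 males, 5.58 and 5.49 in AKP females, and 6.01 and 5.82 in AKP::Keap1 females. AKP male 1 was above AKP male 2 in 77 of 80 members, AKP::Keap1 male 1 above male 2 in 2, AKP female 1 above female 2 in 42, and AKP::Keap1 female 1 above female 2 in 75. The median gap between the 2 mice was 0.24 in AKP males, -0.15 in AKP::Keap1 males, 0.01 in AKP females and 0.21 in AKP::Keap1 females. Gaps of this size are close to the median genotype differences within a sex. They depend on the scaling. Without it the members' median log2 signal was 16.246 and 16.265 in AKP males and 16.493 and 16.604 in AKP::Keap1 males. It was 15.787 and 15.632 in AKP females and 16.148 and 16.244 in AKP::Keap1 females. On the 75th percentile scale the median of the brightest 10% of genes was 5.022 and 4.893, 4.609 and 4.616, 4.612 and 4.575, and 4.767 and 4.606 in the same order. Members measured in 1 mouse share its RNA and its array and are not replicates of one another.

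**Figure D5:**
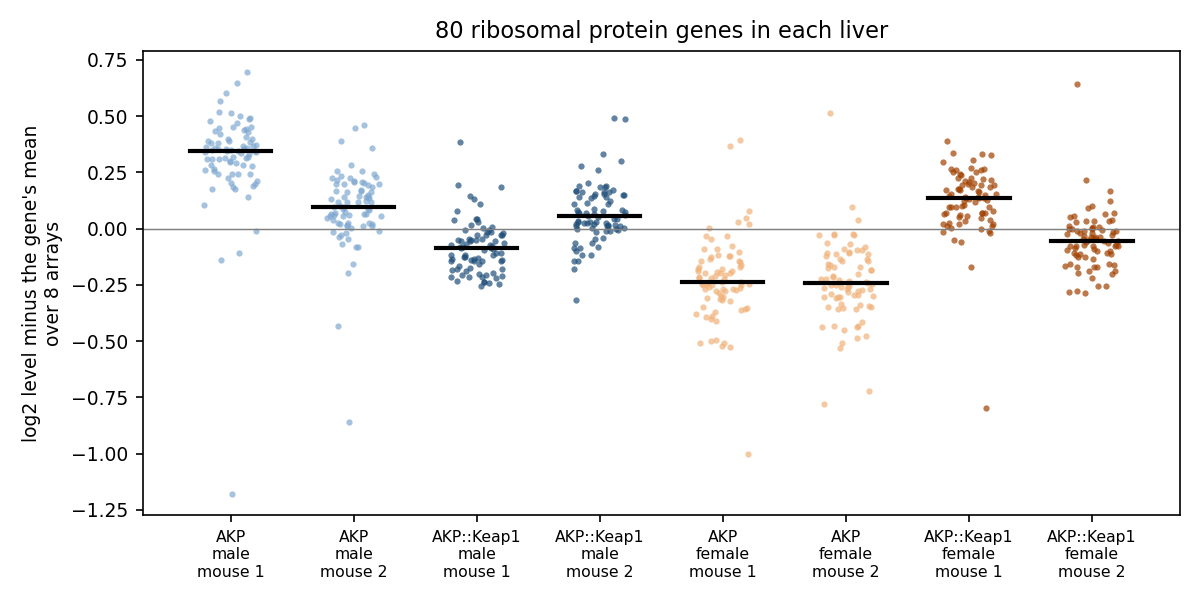
Each point is 1 of the 80 members in 1 liver, as its log2 level minus its own mean over the 8 arrays, and the black lines are medians. The cloud shifts as a whole from mouse to mouse, with AKP male 1 highest and both AKP females lowest on the scale of the 75th percentile.

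To see which members departed from the rest, each array was centred on the median of the 80 members, an alternative chosen after the data had been seen. By genotype 3 members were then called by limma, beside 34.5% of all genes. They were Rps19 at 0.43, Rps21 at 0.39 and Rpl7l1 at -0.43, whereas Rpl39l had a limma adjusted p of 0.0660. In females Rps4l at -0.87 and Rpl7l1 at -0.60 were called lower, beside 26.3% of all genes called in either direction. In males Rps21 at 0.51 was called higher, beside 22.2%. Rpl39l was called higher in males too, without a measured size, since its AKP male signals were not well above background. Rps19, Rps21 and Rpl7l1 were thus called on both scales, but both use the same arrays, so the second is no independent test. With the array median the genotype calls of Rps19 and Rps21 were lost, and without scaling that of Rpl7l1. With the slide as a random block all 3 were lost.

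The relatives of core proteins, with the binding protein Rps19bp1, were looked at as a list of 10, of which 7 were tested. By genotype Rpl39l rose and Rpl7l1 fell, beside 21.8% of all genes higher and 17.3% lower. With the array median none rose and 4 fell, beside 55.1% of all genes called in either direction. In males Rpl39l rose and Rps19bp1, Rps27l and Rpl7l1 fell, beside 16.6% of all genes higher and 12.5% lower. In females Rpl22l1 rose, beside 12.5% of all genes higher. Rpl36al, a copy of Rpl36a, was at 5.94 and 5.69 in the AKP males, 5.25 and 5.43 in the AKP::Keap1 males, 4.79 and 4.85 in AKP females, and 5.34 and 5.08 in AKP::Keap1 females. Its genotype difference of -0.04 ± 0.11 combined -0.47 ± 0.16 in males with 0.39 ± 0.16 in females, neither called. Rps4l was at 2.50 and 2.26, 1.87 and 1.97, 1.98 and 1.81, and 1.10 and 1.71 in the same order of groups.

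Between the sexes, females minus males averaged over genotypes, most members lay lower in females on the scale of the 75th percentile. The sexes were scanned on separate days, so sex and scan day cannot be told apart. The median was -0.20 against -0.03 over all genes, with 73 of 80 members negative, but it was -0.03 with quantile normalization and turned to 0.01 with loess. limma called 1 member higher and 11 lower, beside 9.92% of 15858 genes higher and 11.7% lower (21.7% in either direction), and 32 members had an unadjusted p below 0.05. With quantile normalization the split was 1 and 5 (19.2% of all genes in either direction), with loess 2 and 5 (19.4%), and without scaling 1 and 39 (23.5%). The count was lower whichever of the 8 arrays was left out, as was the share of all genes called. With the slide as a random block the count was 0 (11 at an unadjusted p below 0.05), beside 1.88% of all genes. The member called higher in females was Rpl39l (limma adjusted p = 0.0081), for which no size is given because its 2 AKP males were not well above background.

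Rps19 led the members that were lower in females, at -0.80 ± 0.11 (SE, limma adjusted p = 0.0103), followed by Rpl22l1 at -0.61 ± 0.12, Rpl28 at -0.59 ± 0.12, Rpl36al at -0.56 ± 0.11 and Rps27l at -0.50 ± 0.11. Rpl10, a protein that joins the large subunit late, differed by -0.44 ± 0.11, and Rpl13, Rps6 and Rps13 by -0.37 each. Dimmer probes of Rpl10 differed by -0.50 (limma adjusted p = 0.0274) and by -0.035 (adjusted p = 0.811), so its sex difference depended on the probe. Dimmer probes of Rpl13 differed by -0.22 (adjusted p = 0.198) and -0.23 (adjusted p = 0.186), neither called. Rpl28, a large subunit protein, was at 5.93 and 5.64 in the AKP males, 5.54 and 5.71 in the AKP::Keap1 males, 4.89 and 5.06 in AKP females, and 5.40 and 5.12 in AKP::Keap1 females. Rps6, the small subunit protein phosphorylated by S6 kinase, was at 7.15 and 6.91, 6.63 and 6.66, 6.39 and 6.51, and 6.60 and 6.38 in the same order. By the brightest probe of each gene, all 4 females were below all 4 males for 5 members (Rps19, Rpl22l1, Rpl28, Rpl10 and Rps6), beside 7.85% of all genes, and above for Rpl39l, beside 5.37%. On the Rpl10 probe that differed by -0.035 the sexes overlapped. With quantile normalization the call of Rps19 remained, and that of Rpl10 and of Rps6 was lost.

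Different probes of a gene give a view of the measurement itself. In 50 members more than 1 probe was kept, and the range of the genotype difference over the probes of a gene had a median of 0.13 and stayed under 0.5 in 47 of 50. In 23 of the 50 the probes differed in sign. Tested one by one, 8 of 159 member probes were called higher by genotype and 1 lower, beside 38.9% of 28511 probes on the whole array. Within males 1 was called higher and 8 lower (26.6% of all probes), within females 16 higher (22.1%), by sex 1 higher and 14 lower (21.4%), and for the interaction none (2.17%). The probes called by genotype were the single probes of Rps19, Rps21, Rpl39l and Rpl7l1 and 1 dimmer probe each of 5 other members, among them Rps24, Rpl17, Rpl39 and Rps3. Of Rps24 the 3 probes carry 3 transcript accessions: the brightest differed by 0.13 ± 0.11, the next by 0.28 and the dimmest by 0.55 ± 0.10 (SE, limma adjusted p = 0.00747). That dimmest probe was at 3.78 and 3.58 in the AKP males, 4.05 and 4.02 in the AKP::Keap1 males, 3.80 and 3.60 in AKP females, and 4.40 and 4.47 in AKP::Keap1 females, with all 4 AKP::Keap1 mice above all 4 AKP mice. Rpl39 had the widest range, from -0.13 to 0.45 over 3 probes. Many of these genes have near-identical processed copies in the genome, so part of a probe's signal can come from a copy, and the probe sequences were not used here.

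Core proteins whose symbols fall outside the naming rule followed the same range. Of 7 such genes, among them Rplp0, Rplp1 and Rplp2 (the acidic stalk), Rpsa, Fau and Rack1, none was called by genotype with limma, the smallest adjusted p being 0.192 for Rplp1, and their median was 0.001. With the array median 2 of the 7 fell, and with quantile normalization 3, with loess 1 and without scaling 4 rose. Of all genes 55.1%, 36.8%, 36.7% and 40.2% were called in either direction under these 4 scalings. In males Fau, which encodes a ubiquitin-like protein fused to Rps30, fell by 0.44 ± 0.13 (SE, adjusted p = 0.0475). In females Rplp1 rose by 0.54 ± 0.15 (adjusted p = 0.0471). The genes of mitochondrial ribosomal proteins, which serve the separate ribosome of that organelle, had a median of -0.12 by genotype, and 15 of 77 fell and none rose, beside 17.3% of all genes lower and 21.8% higher. The falls were led by Mrpl47 (-0.60 ± 0.09), Mrpl15 (-0.54 ± 0.09) and Mrps2 (-0.51 ± 0.08). With the array median 58 of 77 fell by genotype, and without scaling 13 of 77 rose and none fell, beside 55.1% and 40.2% of all genes called. In males 30 of 77 fell, beside 12.5% of all genes lower. Without scaling 1 fell in males, beside 35.3% of all genes called in either direction, and the median was 0.12.

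The genes that build, use and control ribosomes were counted by genotype in the same way. Of all genes 21.8% were called higher and 17.3% lower. In either direction 55.1% of all genes were called with the array median and 40.2% without scaling. Of 46 assembly factors 2 rose by genotype, Nhp2 (0.46 ± 0.10) of the pseudouridylation particles and Pes1 (0.48 ± 0.13) of large subunit processing, and 10 fell, led by Nop14 (-0.59 ± 0.09), Nob1 (-0.78 ± 0.12) and Nop16 (-0.58 ± 0.09). Their median was -0.20 and turned to 0.11 without scaling, where 6 rose and 2 fell, while with the array median 30 fell and none rose. Both rises came with larger differences in females, 0.83 ± 0.14 for Nhp2 and 0.84 ± 0.19 for Pes1, than in males, 0.08 ± 0.14 and 0.11 ± 0.19, a contrast that limma's interaction did not call. Of 15 translation factors, many of which share the oligopyrimidine start, 3 fell and none rose: the poly(A)-binding protein Pabpc1 (-0.63 ± 0.11), Eif3e (-0.47 ± 0.09) and Eif4b (-0.55 ± 0.11). Their median was -0.12, and it was positive with quantile normalization, loess and no scaling, the last with 4 that rose and none that fell. With the array median 8 of the 15 fell.

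Among 18 regulators of ribosome production 3 fell, Eif4ebp2 (-0.68 ± 0.12), which blocks cap-dependent initiation, Rictor (-0.57 ± 0.12) of mTOR complex 2, and Mycl (-0.83 ± 0.26). None of the 18 rose. With the array median 12 fell, and without scaling 2 rose and none fell, beside 55.1% and 40.2% of all genes called in either direction. Myc, a general activator of ribosomal protein genes, was at -1.40 and -3.69 in the AKP males, -1.60 and -1.66 in the AKP::Keap1 males, -1.96 and -2.84 in AKP females, and -1.82 and -1.87 in AKP::Keap1 females. The spread between the 2 AKP mice of each sex exceeded the genotype difference of 0.74 ± 0.50 (SE, limma adjusted p = 0.274). Of 8 genes tied to the p53 and ribosome link, the p53 target Phlda3 rose (1.53 ± 0.20) and Mdm4 fell (-0.91 ± 0.16), and without scaling 5 of the 8 rose and 1 fell. Mdm2 differed by 0.16 ± 0.08 (adjusted p = 0.142) and Cdkn1a by 1.22 ± 0.53 (adjusted p = 0.113), neither called. Nfe2l2, which encodes Nrf2, fell by 0.41 ± 0.10 (adjusted p = 0.0230).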

How the data were processed

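Total RNA of whole liver was labelled with 1 dye, per the labels' protocols. The deposited scanner files hold intensity values per spot; the processed signal is an intensity after background subtraction by Agilent Feature Extraction, version 10.7.3.1 per the file headers and 10.1 per the submitters' processing notes. The deposited series matrix held the same intensity values in 355176 of 355176 comparisons. Control spots (1377 of 44397) and spots marked as outliers were left out. Probes were named through RefSeq accessions: 26055 of 39429 received 1 symbol.

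From the log2 processed signal the 75th percentile of the array was subtracted. A probe was kept when 2 or more of the 8 arrays flagged it as well above background, and the brightest probe stood for its gene (15865 genes). limma 3.58.1 in R 4.3.3 fitted 1 mean per group on all 8 arrays. Errors of differences are standard errors of that fit with n = 2 mice per group, and their small number limits the precision. P-values measure the spread between mice of a group, which shared a slide, pooled over the 4 groups and moderated over all genes. Spread between slides is not in them, except with the slide as a random block. Genotype and sex averages also compare different slides. The fit was tested on simulated data.

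Named members are, per contrast, the called members with the largest differences (up to 8 each way by genotype and sex, up to 4 within a sex), the 3 brightest and 3 dimmest, the Mdm2-binding proteins, the relatives and the core proteins outside the rule. From each other list up to 3 called genes each way are named. Some genes that meet the rule are not reported here by name. The single probes of a gene were named after their values had been seen. Members, lists and rules were chosen with earlier results of these data known. Alternatives covered scaling, background correction, filter, probe choice, variance model, slide, replicate number and left-out arrays. Normexp used median foreground signals because the files hold no mean signals; its planned form named the mean. Replicate numbers did not pair the mice (correlations of replicate differences between groups -0.16 to 0.12).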

Additional observations from a re-analysis of the deposited data

Results flagged for a closer look

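Among the members, the mitochondrial ribosomal proteins and the other genes named by the lists, 3 genes were called by limma in the interaction. All 3 calls were lost when AKP male 2 or any 1 female mouse was left out. Mrpl15, of the large subunit of the mitochondrial ribosome, had an interaction of 1.15 ± 0.18 (SE, limma adjusted p = 0.0444), with a genotype difference of -1.11 in males and 0.04 in females. Mrpl14, of the same subunit, had an interaction of 1.07 ± 0.17 (adjusted p = 0.0446), with -0.40 in males and 0.67 in females. These were 2 of 77 mitochondrial ribosomal protein genes, beside 1.9% of all genes called in the interaction. With the array median limma called 25 of the 77, beside 6.85% of all genes, and with normexp 6, beside 2.54%. It called none with quantile normalization, loess or no scaling, beside 1.07%, 1.51% and 3.3% of all genes. There 22, 24 and 7 of the 77 had an unadjusted p below 0.05. The proliferation marker Tyms, thymidylate synthase, had an interaction of -2.20 ± 0.29 (SE, limma adjusted p = 0.0446), with a genotype difference of 2.44 in males and 0.24 in females. Its spot was marked as an outlier on the array of AKP::Keap1 male 1 and left out there, so the male value rests on 1 AKP::Keap1 mouse. The spread behind its p comes from the other groups, and that mouse is assumed to vary like them.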

How the results depend on the processing

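The count of called members depended on the setting, and the share of all genes called in either direction is given in brackets. By genotype (4 members, 39.1%) it was 21 with the array median (55.1%), 20 with quantile normalization (36.8%), 23 with cyclic loess (36.7%) and 47 without scaling (40.2%). It was 0 with the slide as a random block (20.6%, correlation 0.24, where 5 had an unadjusted p below 0.05) and 9 with each probe on its own (38.9% of all probes). The median by genotype was -0.22, 0.18, 0.17 and 0.34 under the first 4 of these and -0.04 to 0.09 with 1 array left out. In males (6) it was 68 with the array median, 10 with loess, with normexp and with trend and robust spreads, 14 without scaling, 2 centred on the members and 3 with male arrays alone, and 0 to 5 with 1 array left out. In females (7, 21.4%) it was 2 with the array median (22.7%) and centred on the members (26.3%), and 13 with quantile normalization (21.8%) and without scaling (15.1%). It was 11 with probes well above background on 8 of 8 arrays (24.5%), 12 with the mean of probes (23.4%) and 14 with trend and robust spreads (24.0%). It was 0 with female arrays alone (7.74%) and 16 with each probe on its own (22.1% of all probes). The interaction (0, 1.9%) gave 14 with the array median (6.85%). It gave 1 with normexp (2.54%), centred on the members (10.3%), or with trend and robust spreads (4.37%). By sex (12) it was 26 with the array median, 6 with quantile normalization, 7 with loess, without the filter and with the mean of probes, 40 without scaling, 4 centred on the members, 0 with the slide block (11 unadjusted) and 2 to 7 with 1 array left out.

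Signs turned for Rpl39l with normexp (-0.26 by genotype and -0.48 in males) and, without scaling and in males, for Rpl3 (0.12), Rpl7l1 (0.032) and Rps2 (0.033). With the replicate block the called members were 4 by genotype (35.8% of all genes), 4 in males (24.6%), 6 in females (18.8%), 0 in the interaction (0.385%) and 6 by sex (17.3%). The last was its only count moved by over 1.5 times. The replicate numbers do not pair the mice. Causes of these shifts were not tested. Centring on the members and testing each probe were chosen after seeing the data. Dim probes such as that of Rpl39l are limited by their signal over background.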
